A study of Mus musculus with 12 samples.

Results

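Most of the genes described here encode proteins of the spliceosome or RNA-binding proteins that guide it, though not every Lsm gene does. The families are small nuclear ribonucleoproteins (Snrp), the SF3A and SF3B subunits of the U2 particle (Sf3), serine/arginine-rich splicing factors (Srsf), heterogeneous nuclear ribonucleoproteins (Hnrnp), pre-mRNA processing factors (Prpf) and LSM proteins (Lsm). Members were taken by gene symbol from probe sets that name 1 gene, and a gene with several probe sets was read from the brightest. This gave 71 genes (10 Snrp, 9 Sf3, 10 Srsf, 17 Hnrnp, 12 Prpf and 13 Lsm) of 19937 genes on the array. Another 6 symbols, among them Hnrnpa1 and Snrpn, lie only on probe sets that name several genes, so no value is given for them. Expression was measured in whole livers of male mice of the C57BL6/JJmsSlc background, with 1 Affymetrix Mouse Gene 1.0 ST array per mouse and 3 mice per group. The 4 groups were wild type (WT) from natural mating, WT from in vitro fertilization (IVF), Atf7-/- from natural mating and Atf7-/- from IVF, and the Atf7-/- mice were bred from Atf7-/- parents, so the mutation was present in every tissue and in both parents. IVF embryos were moved at the 2-cell stage into pseudopregnant ICR females, whereas natural mating pups were carried by their own mothers, so that fertilization in culture, superovulation and the recipient strain cannot be told apart. The labels give the age as 4 weeks and the methods of the article as 3 weeks, and no 2 livers of a group shared a mother or recipient.

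The spliceosome removes introns from pre-mRNA. Its particles each carry an RNA bound by a ring of Sm or LSM proteins and by particle-specific subunits, and the SF3 proteins hold U2 at the branch site. SR proteins bind exons and mostly favour the use of nearby splice sites, whereas many hnRNP proteins coat introns and silence sites, and the balance between both sets which exons are kept. Transcripts of many SR and hnRNP genes carry exons whose inclusion sends the transcript to decay, through which these proteins limit their own levels. ATF7 is a bZIP factor of the ATF2 family that binds cyclic AMP response elements (CRE) and is known as a repressor.

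Values are log2 expression values made by robust multiarray averaging (RMA), and each difference is a log2 fold change with its standard error (SE) from limma, with p-values adjusted (Benjamini-Hochberg) for all 34760 probe sets. A gene was called changed where its adjusted p was 0.05 or less and its log2 fold change reached 0.6 in size, and the verbs rose and fell are kept for called genes. Arrays correlated at 0.980 to 0.990 within a group and at 0.971 to 0.988 between groups, and 0 pairs were identical. The Atf7 probe set 10433032 was lower by -2.82 in Atf7-/- natural mating than in WT natural mating (SE 0.19, adjusted p = 1.93e-05), and by -2.53 between the IVF groups (adjusted p = 0.000752). The other Atf7 probe set, 10433034, gave -0.34 (adjusted p = 0.0758) and -0.39 (adjusted p = 0.721) and was not called. For IVF in WT, 10433032 gave -0.74 (adjusted p = 0.0384) and was called, whereas 10433034 gave -0.26 (adjusted p = 0.19) and was not. The article reported Atf7 mRNA and ATF7 protein to be alike in IVF and control livers. Its methods list Atf7 primers for quantitative RT-PCR and a western blot, which are other measures than these probe sets. Hepatocyte markers averaged 12.77 to 12.95 on every array, against a median of 6.27 over all probe sets. In whole liver, fewer cells of a type and less RNA per cell cannot be told apart.

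Across the 4 groups, 37 of the 71 genes differed by limma's moderated F test at an adjusted p of at most 0.05. This was 52.1%, beside 19.3% of all probe sets. Arrays that lay beyond the other 9 were counted for Atf7-/- natural mating only. In 23 of the 71 genes (32.4%, against 6.03% of all probe sets) each of its 3 arrays read below the other 9, and in 6 genes (8.45%, against 6.74%) each read above them. The low genes were 10 of 17 Hnrnp, 6 of 12 Prpf, 4 of 10 Snrp, 2 of 9 Sf3, 1 of 10 Srsf and 0 of 13 Lsm genes. Of the 6 high genes, 3 were Lsm genes. The mean of Atf7-/- natural mating was the lowest of the 4 group means in 39 genes, and in 14 of the 17 Hnrnp genes. Averaged over all 71 genes, the arrays of this group read 8.53 to 8.55, below WT natural mating at 8.67 to 8.70, Atf7-/- IVF at 8.69 to 8.84 and WT IVF at 8.80 to 8.84. The mean over all probe sets lay between 6.42 and 6.46 on every array. The median of all probe sets differed more between groups. It was 6.3 to 6.34 in WT natural mating, 6.22 to 6.27 in WT IVF, 6.26 to 6.28 in Atf7-/- natural mating and 6.26 to 6.31 in Atf7-/- IVF. With 2 arrays left in Atf7-/- natural mating the F test found 20, 21 or 22 genes (without replicates 1, 2 and 3). The matching share of all probe sets was not counted, so whether these genes lost more calls than the rest cannot be said.

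**Figure D1:**
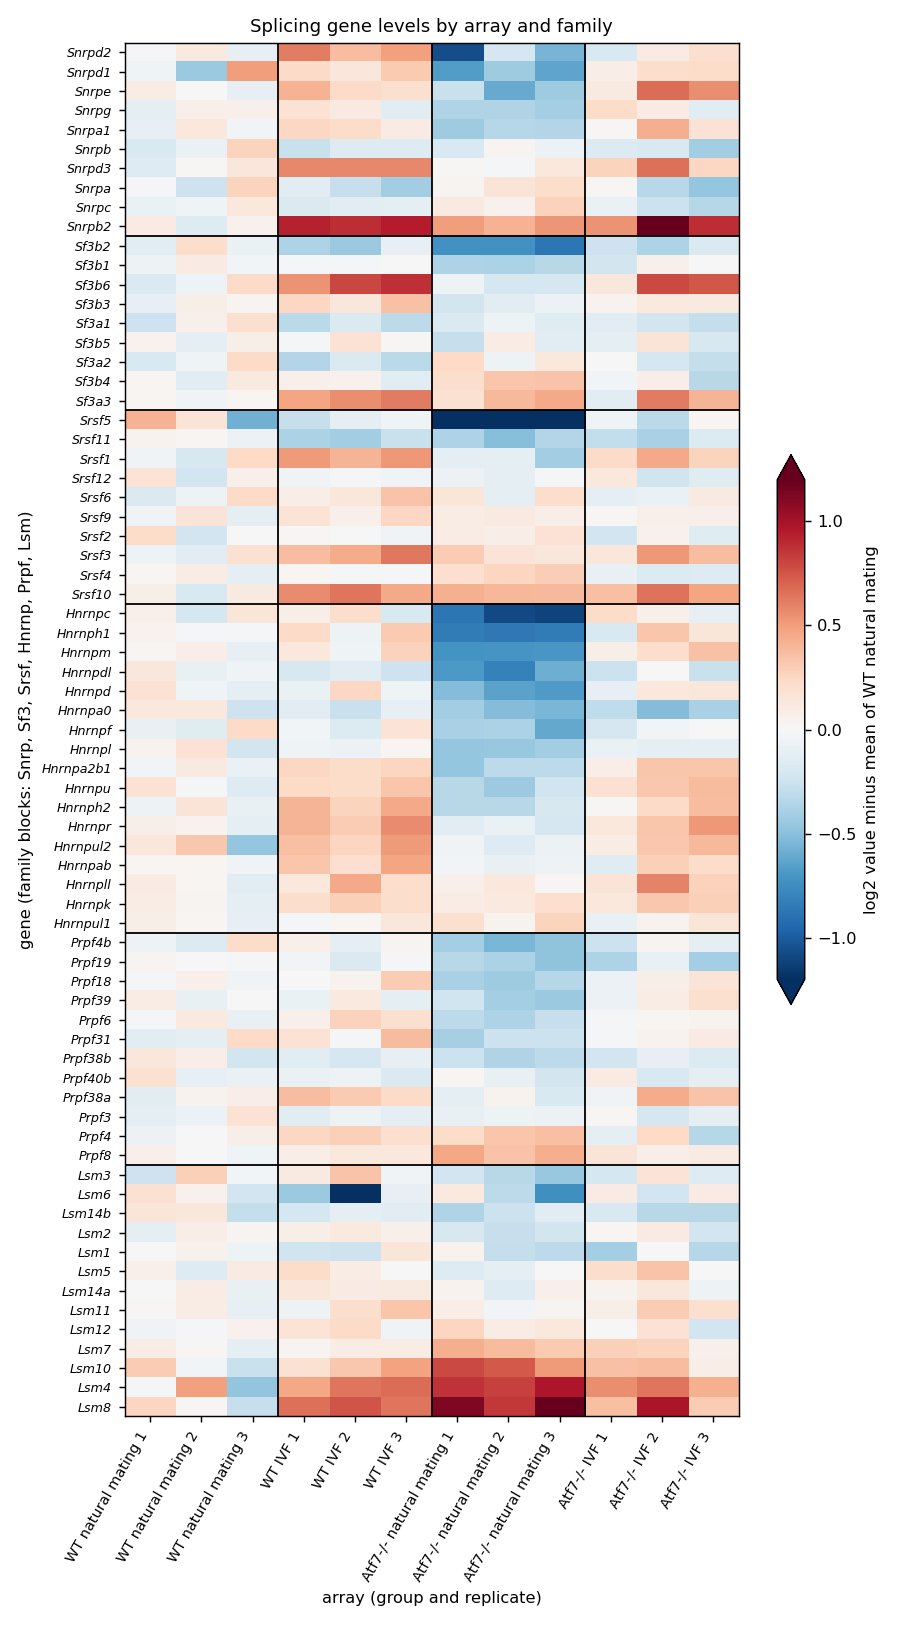
Each row is 1 of the 71 genes, grouped by family (Snrp, Sf3, Srsf, Hnrnp, Prpf, Lsm), each column is 1 of the 12 arrays, and the colour is the log2 value minus the mean of the 3 WT natural mating arrays, with the scale ending at 1.2 in either direction. The Atf7-/- natural mating columns are the lowest in 23 genes, 10 of them Hnrnp genes, and the bottom 3 Lsm rows, Lsm8, Lsm4 and Lsm10, are high there.

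The comparison of Atf7-/- with WT livers, both from natural mating, was made without any embryo handling. The Atf7-/- pups were carried by Atf7-/- mothers and the WT pups by WT mothers. Absence of ATF7 in the pup and in its mother therefore cannot be told apart here, whereas IVF pups of both genotypes were carried by ICR females. Genes for hnRNP proteins, 1 SR protein and 1 SF3B subunit fell, and 3 LSM genes rose. Of the 71 genes, 7 fell (9.86%, against 3.67% of all probe sets and 1.90% of the brightest probe sets of all genes) and 3 rose (4.23%, against 3.83% and 4.31%). The 7 were Srsf5, Hnrnpc, Hnrnph1, Hnrnpm, Hnrnpdl, Hnrnpd and Sf3b2, and the 3 were Lsm8, Lsm4 and Lsm10. By the adjusted p alone 18 were lower (6.44% of all probe sets) and 7 higher (7.27%). The median log2 fold change was -0.14 over the 71 genes and -0.02 over all probe sets. After centring the arrays on their medians these were -0.09 and 0.03, and after a further quantile normalization -0.15 and 0.01.

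Srsf5, an SR protein that binds exonic enhancers, had the largest difference among the 71 genes. It read 11.04, 10.78 and 10.05 in WT from natural mating, 10.35, 10.52 and 10.57 in WT from IVF, 8.80, 8.81 and 8.81 in Atf7-/- from natural mating and 10.57, 10.30 and 10.65 in Atf7-/- from IVF. The Atf7-/- natural mating arrays read 8.80 to 8.81 and lay below each of the other 9, which overlapped one another. Srsf5 fell by 1.82 (SE 0.21, adjusted p = 0.000329) on the log2 scale by limma. Its other probe set, 10508490, gave -1.34 (SE 0.20, adjusted p = 0.00131). Among the other SR genes, Srsf11 gave -0.42 (SE 0.09, adjusted p = 0.0114) and Srsf10 0.41 (SE 0.11, adjusted p = 0.0274), which passed the adjusted p but not the fold limit. The second, dimmer Srsf10 probe set, 10509113, gave -0.05 (adjusted p = 0.825), so the higher value of Srsf10 rests on its brightest probe set. Srsf1, the founding SR protein, gave -0.20 and Srsf3, the smallest SR protein, 0.19, and neither passed the adjusted p (0.354 and 0.371). The median over the 10 Srsf genes was 0.09, and it was 0.13 after centring the arrays and 0.03 after a further quantile normalization.

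Of the 17 genes of the hnRNP family, 5 fell and 0 rose, 14 had a negative log2 fold change, and the family's median was -0.36 (-0.31 after centring the arrays, -0.42 after quantile normalization). Hnrnpc, which binds uridine tracts in nascent transcripts, read 9.55, 9.28 and 9.63 in WT from natural mating, 9.56, 9.70 and 9.30 in WT from IVF, 8.62, 8.40 and 8.38 in Atf7-/- from natural mating and 9.71, 9.55 and 9.39 in Atf7-/- from IVF. Each of its Atf7-/- natural mating values lay below the other 9, and it fell by 1.02 (SE 0.14, adjusted p = 0.000808) on the log2 scale. Hnrnph1, a binder of runs of guanine, read 9.81, 9.75 and 9.75 in WT from natural mating, 10, 9.71 and 10.08 in WT from IVF, 8.93, 8.91 and 8.93 in Atf7-/- from natural mating and 9.59, 10.10 and 9.92 in Atf7-/- from IVF. It fell by 0.85 (SE 0.13, adjusted p = 0.00196), again with all 3 arrays under the other 9. Hnrnpm, a splicing regulator that binds GU-rich sequence, read 9.69, 9.75 and 9.57 in WT from natural mating, 9.80, 9.62 and 9.95 in WT from IVF, 8.95, 8.96 and 8.97 in Atf7-/- from natural mating and 9.74, 9.88 and 10.02 in Atf7-/- from IVF. It fell by 0.71 (SE 0.11, adjusted p = 0.00151), and the spread of its Atf7-/- natural mating arrays was the smallest of its 4 groups.

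Hnrnpd, known as AUF1 and as a binder of AU-rich elements, read 9.33, 9.11 and 9.04 in WT from natural mating, 9.08, 9.41 and 9.11 in WT from IVF, 8.64, 8.52 and 8.48 in Atf7-/- from natural mating and 9.06, 9.29 and 9.30 in Atf7-/- from IVF. Its paralogue Hnrnpdl read 9.73, 9.50 and 9.54 in WT from natural mating, 9.40, 9.45 and 9.34 in WT from IVF, 8.90, 8.78 and 9.0 in Atf7-/- from natural mating and 9.33, 9.59 and 9.32 in Atf7-/- from IVF. In both genes Atf7-/- natural mating lay below the other 3 groups without overlap. Hnrnpdl fell by 0.70 (SE 0.10, adjusted p = 0.00152) and Hnrnpd by 0.62 (SE 0.12, adjusted p = 0.00616). Hnrnpa0, Hnrnpf, Hnrnpl and Hnrnpa2b1 passed the adjusted p with -0.49, -0.46, -0.44 and -0.36, short of the fold limit. Hnrnpk gave 0.14 from its brightest probe set and -0.49 (adjusted p = 0.0175) from the next, 10409689, so no direction is given for it. The call of Hnrnpd ended without Atf7-/- natural mating replicate 3 or WT natural mating replicate 1 (log2 fold change -0.68 to -0.54 over the arrays left out) and after centring the arrays.

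In the U2 particle, Sf3b2, an SF3B subunit that binds the pre-mRNA near the branch site, read 8.52, 8.87 and 8.58 in WT from natural mating, 8.29, 8.21 and 8.56 in WT from IVF, 7.93, 7.93 and 7.79 in Atf7-/- from natural mating and 8.41, 8.29 and 8.48 in Atf7-/- from IVF. The Atf7-/- natural mating arrays lay below the other 9, and Sf3b2 fell by 0.77 (SE 0.12, adjusted p = 0.00199) on the log2 scale. Sf3b1, the large SF3B subunit, passed the adjusted p with -0.36 (SE 0.09, adjusted p = 0.0216) and missed the fold limit. No Snrp or Prpf gene was called. Among the Prpf genes, 10 of 12 had a negative log2 fold change with a median of -0.31 (-0.27 after centring, -0.33 after quantile normalization), and 5 passed the adjusted p. These were Prpf19, the ubiquitin ligase at the core of the Prp19 complex (-0.40), Prpf18, a factor of the second catalytic step (-0.39), the kinase Prpf4b (-0.48), Prpf6, which bridges the tri-snRNP (-0.32), and the U1-associated Prpf39 (-0.36). Prpf8, the scaffold of the catalytic centre, stood on the other side, at 0.42 (SE 0.075, adjusted p = 0.00403) with 11.08, 10.96 and 11.05 in Atf7-/- natural mating against 10.56 to 10.77 on the other 9 arrays. It passed the adjusted p and missed the fold limit.

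Of the LSM genes that rose, Lsm8 and Lsm4 share the nuclear ring and Lsm10 works in another particle. Lsm8, which marks the nuclear LSM ring that binds U6 RNA, read 7.27, 7.03 and 6.74 in WT from natural mating, 7.67, 7.77 and 7.66 in WT from IVF, 8.13, 7.86 and 8.21 in Atf7-/- from natural mating and 7.37, 7.99 and 7.32 in Atf7-/- from IVF. It rose by 1.05 (SE 0.19, adjusted p = 0.00369), and the WT natural mating arrays were the lowest of the 12 without overlap with WT IVF or Atf7-/- natural mating. Lsm4, a subunit of both the nuclear and the cytoplasmic LSM ring, read 8.64, 9.16 and 8.19 in WT from natural mating, 9.13, 9.31 and 9.33 in WT from IVF, 9.53, 9.48 and 9.63 in Atf7-/- from natural mating and 9.22, 9.31 and 9.09 in Atf7-/- from IVF and rose by 0.88 (SE 0.19, adjusted p = 0.0114). Lsm10, a part of the U7 particle that processes histone transcripts, read 7.66, 7.32 and 7.09 in WT from natural mating, 7.54, 7.68 and 7.84 in WT from IVF, 8.15, 8.09 and 7.87 in Atf7-/- from natural mating and 7.71, 7.73 and 7.44 in Atf7-/- from IVF and rose by 0.68 (SE 0.15, adjusted p = 0.013). In both genes the Atf7-/- natural mating arrays were above the other 9, and the WT natural mating arrays were widely spread. Over the 13 Lsm genes the median was -0.02, and it changed sign to 0.03 after centring. The call of Lsm10 ended without Atf7-/- natural mating replicate 1 or WT natural mating replicate 3 (log2 fold change 0.55 to 0.83), and that of Lsm4 when only both groups were fitted.

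Markers of other cells moved between these groups too. Of 12 Kupffer cell and macrophage markers, 4 fell and 1 rose, with a mean level of 8.90 to 9.60 across the WT natural mating arrays and 8.74 to 8.96 in Atf7-/- natural mating. Of 12 stellate cell markers 3 rose (8.25 to 8.64 and 8.77 to 9.07), and all 12 had a positive log2 fold change, with a median of 0.38. Of 13 proliferation markers 1 rose and 12 were positive, with a median of 0.76. The mean level of the proliferation markers was 6.28 to 6.89 on the WT arrays and 6.88 to 7.91 on the Atf7-/- arrays. Of 8 lymphocyte markers 1 fell (5.97 to 6.4 and 6.0 to 6.10). Of 10 hepatocyte markers, the transcription factor Hnf4a rose by 0.68 (adjusted p = 0.0039), of 10 sinusoidal endothelial markers Clec4g rose by 1.0 (adjusted p = 0.00283) with a mean level of 8.89 to 9.09 and 9.15 to 9.44, and of 5 cholangiocyte markers Krt19 rose by 0.60 (adjusted p = 0.00123) with 5.65 to 5.72 and 5.82 to 5.98. Array values have no true zero, so whether a marker was absent was not tested, and the part of these cells in the splicing genes was not tested.

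**Figure D2:**
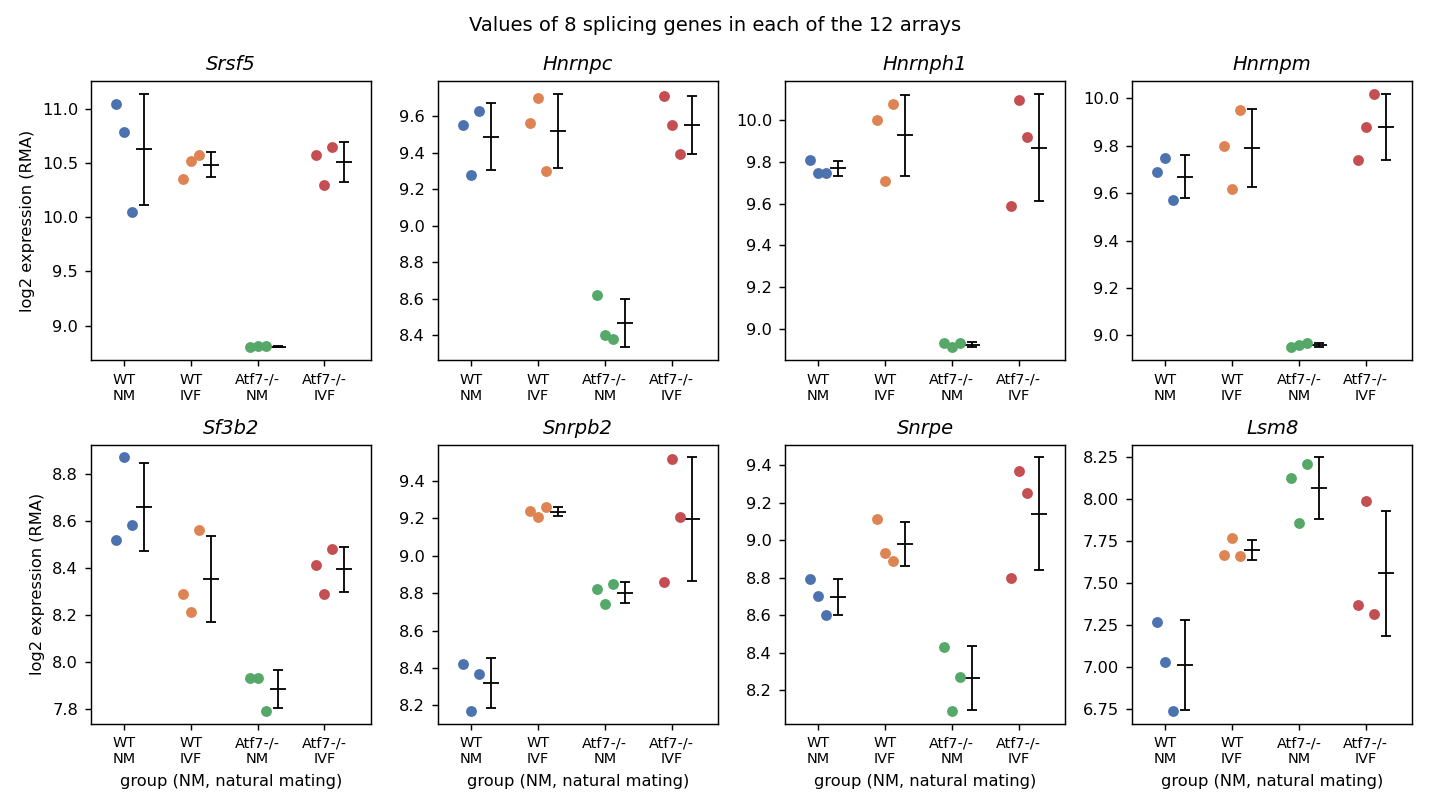
The log2 RMA value of 8 genes is plotted for each of the 12 arrays by group (NM, natural mating), with the group mean and its SD (n = 3) beside the points and an axis of its own for each gene. Srsf5, Hnrnpc, Hnrnph1, Hnrnpm, Sf3b2 and Snrpe lie below the other 9 arrays in Atf7-/- natural mating (8.80 to 8.81 for Srsf5), whereas Snrpb2 and Lsm8 are lowest in WT natural mating.

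The promoters of 4 of these genes are shown because ATF7 binds CRE letters. Hnrnpc, Hnrnpm and Srsf5 are the genes whose calls for ATF7 loss after natural mating, for IVF in Atf7-/- and for the difference between the IVF effects, described further on, all held without each array in turn, and Lsm8 was added as the member that rose most with ATF7 loss. Each run is the 250 bases before the RefSeq transcript start in build GRCm38.p6, written 5′ to 3′ on the gene's strand. The positions are chr14:52104022-52104271 (minus strand), chr17:33685459-33685708 (minus strand), chr12:80945249-80945498 (plus strand) and chr6:18848385-18848634 (plus strand). Capitals mark the CRE half-site TGACG or its reverse complement CGTCA.
Hnrnpc: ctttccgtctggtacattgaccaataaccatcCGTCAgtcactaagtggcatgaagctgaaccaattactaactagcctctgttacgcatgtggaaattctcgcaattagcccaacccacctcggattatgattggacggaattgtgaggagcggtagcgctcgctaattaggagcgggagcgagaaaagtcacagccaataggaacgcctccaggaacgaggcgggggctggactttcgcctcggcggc
Hnrnpm: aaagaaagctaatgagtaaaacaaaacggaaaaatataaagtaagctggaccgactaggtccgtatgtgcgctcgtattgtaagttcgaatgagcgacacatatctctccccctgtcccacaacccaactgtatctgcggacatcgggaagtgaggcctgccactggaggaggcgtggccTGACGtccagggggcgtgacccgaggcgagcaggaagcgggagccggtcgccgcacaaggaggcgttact
Srsf5: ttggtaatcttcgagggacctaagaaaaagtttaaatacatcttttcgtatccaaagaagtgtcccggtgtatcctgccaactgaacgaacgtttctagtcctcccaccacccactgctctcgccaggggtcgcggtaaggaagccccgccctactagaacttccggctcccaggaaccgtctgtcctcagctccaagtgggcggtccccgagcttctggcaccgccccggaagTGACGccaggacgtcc
Lsm8: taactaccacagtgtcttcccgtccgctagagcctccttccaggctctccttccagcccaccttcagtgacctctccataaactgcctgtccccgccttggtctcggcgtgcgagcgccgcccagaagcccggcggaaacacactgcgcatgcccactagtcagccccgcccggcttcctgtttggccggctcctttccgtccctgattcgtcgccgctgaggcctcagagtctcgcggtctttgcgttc

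The half-site begins 218 bases before the start in Hnrnpc, 70 bases in Hnrnpm and 16 bases in Srsf5, and these letters are not in the Lsm8 window. Of the 71 genes, 61 had a window in the RefSeq table, with 80 windows in all since a gene can have several starts. The half-site, searched on both strands, was in 28 of the 80 windows (35.0%), of 24 genes, and in 17.8% of the 32851 windows of all genes. The full element TGACGTCA, which contains the half-site on both strands, was in 3 windows (3.75%, against 1.55% of all), those of Lsm2, Snrpa and Snrpg. The 4 promoters shown do not stand for all called genes. Of the 7 genes that fell with ATF7 loss after natural mating, 4 have the half-site (Hnrnpc, Hnrnph1, Hnrnpm and Srsf5) and 3 do not (Hnrnpd, Hnrnpdl and Sf3b2), and of the 3 that rose, Lsm8 and Lsm10 lack it and Lsm4 had no window. By the adjusted p alone, 11 of 17 lower genes with a window and 2 of 6 higher genes (Prpf8 and Srsf10) have it, as do 11 of the 38 genes that missed the adjusted p. Lsm2 gave a log2 fold change of -0.23, Snrpa 0.13 and Snrpg -0.38 in Atf7-/- natural mating against WT natural mating, and none of these 3 was called. A match in letters is a description and not a bound site, and binding of ATF7 was not measured on these arrays.

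IVF in Atf7-/- mice was compared with natural mating in Atf7-/- mice, which are the same 3 Atf7-/- natural mating arrays as above, so both comparisons share them. Of the 71 genes 11 rose (15.5%, against 3.27% of all probe sets), and 0 fell (3.51% of all probe sets). Those that rose were 6 of 17 Hnrnp, 3 of 10 Snrp, 1 of 10 Srsf and 1 of 9 Sf3 genes. The median was 0.47 for Hnrnp and 0.41 for Snrp, but 0.04 for Srsf (5 positive and 5 negative) and 0.06 for Sf3 (5 and 4). By the adjusted p alone 23 were higher (6.12% of all probe sets) and 3 lower (6.82% of all probe sets), the latter being Snrpc, Srsf4 and Prpf8. The median was 0.20 over the 71 genes and 0.01 over all probe sets.

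Srsf5 rose by 1.69 (SE 0.21, adjusted p = 0.000631), and by 1.27 (adjusted p = 0.00218) on its other probe set. Its Atf7-/- IVF arrays, at 10.57, 10.30 and 10.65, lay within the range of the WT natural mating arrays (10.05 to 11.04). Of the hnRNP genes, Hnrnpc rose by 1.08 (SE 0.14, adjusted p = 0.000762), Hnrnph1 by 0.95 (SE 0.13, adjusted p = 0.00126) and Hnrnpm by 0.92 (SE 0.11, adjusted p = 0.000492). Hnrnpd rose by 0.67 (SE 0.12, adjusted p = 0.00448), Hnrnpu, a nuclear scaffold protein, by 0.63 (SE 0.10, adjusted p = 0.00277), and Hnrnpa2b1, a binder of pre-mRNA and of transported transcripts, by 0.60 (SE 0.095, adjusted p = 0.00244). Hnrnpu read 11.05, 10.86 and 10.72 in WT from natural mating, 11.12, 11.10 and 11.21 in WT from IVF, 10.54, 10.44 and 10.64 in Atf7-/- from natural mating and 11.06, 11.20 and 11.26 in Atf7-/- from IVF. Hnrnpa2b1 read 9.69, 9.83 and 9.64 in WT from natural mating, 9.97, 9.94 and 9.98 in WT from IVF, 9.26, 9.41 and 9.41 in Atf7-/- from natural mating and 9.80, 10.05 and 10.05 in Atf7-/- from IVF. In all 6 genes the Atf7-/- IVF arrays lay above all Atf7-/- natural mating arrays. The family's median was 0.47 (0.46 after centring, 0.48 after quantile normalization), and 16 of 17 genes were positive.

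The Snrp genes that rose encode proteins of the Sm ring shared by most particles. Snrpe read 8.79, 8.70 and 8.60 in WT from natural mating, 9.11, 8.93 and 8.89 in WT from IVF, 8.43, 8.09 and 8.27 in Atf7-/- from natural mating and 8.80, 9.37 and 9.25 in Atf7-/- from IVF, and rose by 0.88 (SE 0.15, adjusted p = 0.00328). Snrpd1 read 8.81, 8.41 and 9.36 in WT from natural mating, 9.09, 9.0 and 9.17 in WT from IVF, 8.19, 8.43 and 8.23 in Atf7-/- from natural mating and 8.94, 9.07 and 9.08 in Atf7-/- from IVF, and rose by 0.75 (SE 0.19, adjusted p = 0.0246). Snrpd2 read 8.93, 9.07 and 8.85 in WT from natural mating, 9.56, 9.32 and 9.44 in WT from IVF, 7.89, 8.75 and 8.39 in Atf7-/- from natural mating and 8.77, 9.05 and 9.14 in Atf7-/- from IVF, and rose by 0.64 (SE 0.19, adjusted p = 0.0448). Of the 4 other probe sets that carry the symbol Snrpd2, 10550601 gave 0.63 (adjusted p = 0.00532) and the others 0.40, 0.42 and 0.28. The 0.28 came from 10405234, which was dim, with a mean of 3.36 over the 12 arrays. In all 3 genes the Atf7-/- IVF arrays lay above the Atf7-/- natural mating arrays, whereas in WT the Snrpd1 arrays overlapped, with 1 natural mating array, at 9.36, above all 3 IVF arrays. Snrpa1, a U2 protein, passed the adjusted p with 0.58 (SE 0.11, adjusted p = 0.00719). Sf3b6, the SF3B protein that touches the branch point adenosine, read 7.39, 7.51 and 7.80 in WT from natural mating, 8.11, 8.37 and 8.44 in WT from IVF, 7.51, 7.36 and 7.36 in Atf7-/- from natural mating and 7.70, 8.36 and 8.31 in Atf7-/- from IVF, and rose by 0.71 (SE 0.17, adjusted p = 0.0211). Sf3b2 passed the adjusted p with 0.51 (SE 0.12, adjusted p = 0.0187) and missed the fold limit, as did Srsf1 with 0.53 and Sf3b1 with 0.31.

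The calls of Srsf5, Hnrnpc, Hnrnph1, Hnrnpm, Hnrnpd and Snrpe held without each array of the comparison in turn. Those of Sf3b6, Snrpd1 and Snrpd2 ended without Atf7-/- IVF replicate 2, Atf7-/- IVF replicate 3 or Atf7-/- natural mating replicate 3, that of Sf3b6 also without Atf7-/- natural mating replicate 2 and those of both Sm genes without Atf7-/- natural mating replicate 1 (log2 fold change 0.59 to 0.92 for Sf3b6, 0.70 to 0.82 for Snrpd1 and 0.41 to 0.84 for Snrpd2). That of Hnrnpu ended without Atf7-/- natural mating replicate 2 or Atf7-/- IVF replicate 3 (0.59 to 0.69), and that of Hnrnpa2b1 without Atf7-/- natural mating replicate 1, Atf7-/- IVF replicate 2 or Atf7-/- IVF replicate 3 (0.55 to 0.69) and after centring. Fitting only both groups ended the calls of Sf3b6 and Snrpd2, and centring or taking the mean of all probe sets of the gene ended that of Snrpd2. Of 8 lymphocyte markers 3 rose in the same comparison (mean level 6.0 to 6.10 and 6.34 to 6.36), of 6 erythroid markers 1 rose, of 10 hepatocyte markers 1 fell (Hnf4a, by 0.76, adjusted p = 0.00252), and 0 of 13 proliferation markers were called (6.88 to 7.91 and 6.62 to 8.13). Their part in the splicing genes was not tested.

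In WT mice, IVF against natural mating gave fewer calls among these genes. Snrpb2, Sf3b6 and Lsm8 rose, 3 of 71 (4.23%), a share near the 2.85% of all probe sets and the 3.27% of the brightest probe sets of all genes, and 0 fell (1.67% of all probe sets). Snrpb2, the B'' protein of the U2 particle, read 8.42, 8.17 and 8.37 in WT from natural mating, 9.24, 9.21 and 9.26 in WT from IVF, 8.82, 8.74 and 8.85 in Atf7-/- from natural mating and 8.86, 9.52 and 9.21 in Atf7-/- from IVF. All 3 WT IVF arrays were above all 3 WT natural mating arrays, and Snrpb2 rose by 0.92 (SE 0.14, adjusted p = 0.00471). Its Atf7-/- natural mating arrays lay between these groups. Sf3b6 rose by 0.74 (SE 0.17, adjusted p = 0.0267) and Lsm8 by 0.69 (SE 0.19, adjusted p = 0.0432), in both cases without overlap of the groups. By the adjusted p alone 8 genes were higher (5.13% of all probe sets) and 1 lower (3.49%). Higher were, among others, Snrpd3, an Sm ring protein (0.58), Srsf10 (0.55), Srsf1 (0.48), Srsf3 (0.48) and Hnrnpr (0.43), and lower was Srsf11 (-0.36). None of the 17 Hnrnp genes was called, and their median was 0.16 (0.23 after centring, 0.06 after quantile normalization). Over the 71 genes the median was 0.12 (0.19 after centring, 0.06 after quantile normalization). Over all probe sets it was -0.04 (0.03 after centring, -0.01 after quantile normalization). Without a model, 22 of the 71 genes were higher without overlap (31%, against 14% of all probe sets) and 4 lower (5.63%, against 15.4%). The article names the spliceosome among the pathways enriched in its genes upregulated by IVF, both in WT and in Atf7-/- liver.

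The call of Snrpb2 held without each of the 6 arrays in turn (log2 fold change 0.84 to 0.97, adjusted p = 0.00969 to 0.0216). That of Sf3b6 ended without WT natural mating replicate 1 or 2 or WT IVF replicate 2 or 3 (0.65 to 0.86), and that of Lsm8 held in 1 of 6 cases, without WT natural mating replicate 1 (0.55 to 0.82 over all 6), and ended when only both groups were fitted and with the replicate number as a block. Proliferation markers moved with this comparison: 13 of 13 had a positive log2 fold change with a median of 1.2, 1 was called, and their mean level was 6.28 to 6.89 on the natural mating arrays and 7.80 to 7.92 after IVF. Of 12 stellate cell markers 11 were positive with a median of 0.41, 1 was called, and their mean level was 8.25 to 8.64 and 8.81 to 9.07, without overlap. Of 12 Kupffer cell and macrophage markers 10 were negative with a median of -0.31, and their mean level was 8.90 to 9.60 and 8.98 to 9.02, with overlap. Single markers of other cells were called too: Cd5l of macrophages and Pck1 of hepatocytes fell by 0.74 and 0.77 (adjusted p = 0.0164 and 0.0247), and Ms4a1 of lymphocytes and Clec4g of endothelial cells rose by 0.93 and 0.75 (adjusted p = 0.0161 and 0.0225). The part of these cells in the splicing genes was not tested.

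**Figure D3:**
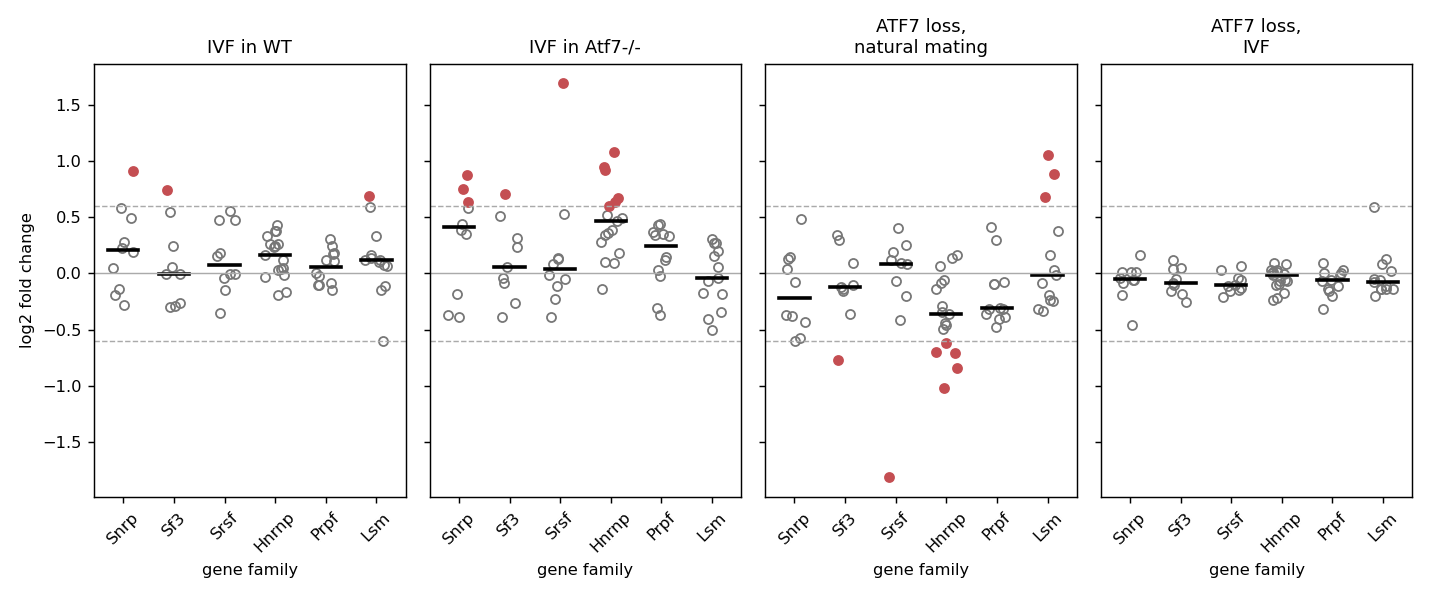
Each point is the log2 fold change of 1 gene, by family, in 4 comparisons, with filled red points for called genes, open points for the rest, a black bar at the family median and dashed lines at 0.6 in either direction. The Hnrnp medians are 0.16 for IVF in WT, 0.47 for IVF in Atf7-/-, -0.36 for ATF7 loss after natural mating and -0.01 for ATF7 loss after IVF, and in the last panel 0 genes are called.

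Whether IVF had a different effect in the 2 genotypes was tested as an interaction, the log2 fold change of IVF in Atf7-/- minus that in WT. The effect was more positive in Atf7-/- for 5 Hnrnp genes, 1 Srsf gene and 1 Sf3 gene and more negative for 1 Lsm gene. The mothers of the natural mating pups differed in genotype too, so pup and maternal genotype cannot be told apart in the interaction. Of the 71 genes, 7 had a positive interaction (9.86%, against 2.72% of all probe sets) and 1 a negative one (1.41%, against 3.46%). After centring the arrays the split was 5 and 3. Srsf5 gave 1.84 (SE 0.29, adjusted p = 0.00477), with -0.15 for IVF in WT and 1.69 in Atf7-/-. Hnrnpc gave 1.05 (SE 0.19, adjusted p = 0.00993) from 0.03 and 1.08, and Hnrnpm 0.80 (SE 0.15, adjusted p = 0.0106) from 0.12 and 0.92. Sf3b2 gave 0.81 (SE 0.17, adjusted p = 0.0179) and Hnrnpdl 0.71 (SE 0.15, adjusted p = 0.0164), and each was negative in WT (-0.30 and -0.19) and positive in Atf7-/- (0.51 and 0.52). Lsm8 gave -1.19 (SE 0.26, adjusted p = 0.0213), from 0.69 in WT and -0.50 in Atf7-/-. The Hnrnp median was 0.36 (0.28 after centring, 0.41 after quantile normalization), and 13 of 17 were positive. In the Srsf family Srsf5 was the 1 call of 10 genes, the median was -0.21 and 6 of 10 were negative, and the median of the 9 Sf3 genes was 0.

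The 5 interactions of Srsf5, Hnrnpc, Hnrnpm, Sf3b2 and Hnrnpdl held without each of the 12 arrays in turn. Hnrnph1 gave 0.78 (SE 0.19, adjusted p = 0.0303) and Hnrnpd 0.64 (SE 0.17, adjusted p = 0.0477). That of Hnrnph1 held in 4 of 12 cases (without Atf7-/- IVF replicate 1 or 2, WT natural mating replicate 3 or WT IVF replicate 3, with 0.67 to 0.93 over all 12), that of Hnrnpd in 3 of 12 (without Atf7-/- IVF replicate 1, WT natural mating replicate 3 or WT IVF replicate 2, with 0.55 to 0.74), and both ended after centring and with the replicate number as a block. That of Lsm8 ended without Atf7-/- natural mating replicates 1 or 3, Atf7-/- IVF replicate 3 or WT IVF replicate 2 (-1.41 to -1.06). The genes that missed the threshold were not shown to respond alike in both genotypes: Snrpb2 gave -0.52 (SE 0.20, adjusted p = 0.154), Snrpe 0.60 (SE 0.21, adjusted p = 0.119) and Sf3b6 -0.03 (SE 0.25, adjusted p = 0.965).

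**Figure D4:**
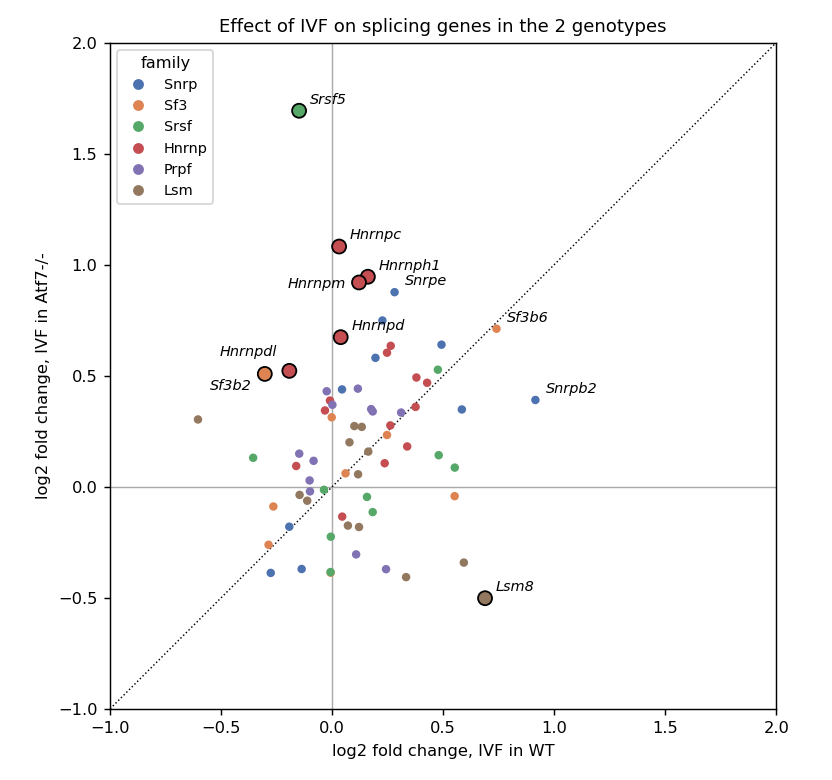
Each point is 1 of the 71 genes, with the log2 fold change of IVF in WT on the horizontal axis and in Atf7-/- on the vertical axis, coloured by family, with large black-edged points for the 8 genes whose interaction was called and a dotted line where both effects are equal. Srsf5 lies at -0.15 and 1.69 and Hnrnpc at 0.03 and 1.08, far above the line, whereas Lsm8 lies below it at 0.69 and -0.50.

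Between the genotypes after IVF, 0 of the 71 genes were called by limma (0.00575% of all probe sets were called, all of them lower), and 0 under each alternative in the processing. At an unadjusted p under 0.05 there were 2 genes, beside 6.12% of all probe sets, and the smallest adjusted p was 0.783. The 2 genes were Snrpd2, at -0.46 (95% confidence interval -0.87 to -0.05), and Prpf4, a protein of the U4/U6 particle, at -0.32 (95% confidence interval -0.60 to -0.04). The other Snrpd2 probe sets gave -0.18, 0.05, -0.49 and 0.38, so they did not share a sign. The 0.38 came from 10405234, a dim probe set with a mean of 3.36 and a 95% confidence interval of -0.43 to 1.19. For the genes that differed most between the natural mating groups the intervals were narrow enough to leave out differences of that size. Srsf5 gave 0.03 (95% confidence interval -0.43 to 0.48), Hnrnpc 0.03 (95% confidence interval -0.27 to 0.33), Hnrnph1 -0.06 (95% confidence interval -0.35 to 0.23), Hnrnpm 0.09 (95% confidence interval -0.14 to 0.32), Sf3b2 0.04 (95% confidence interval -0.23 to 0.30) and Lsm8 -0.14 (95% confidence interval -0.55 to 0.27). Lsm6, an LSM ring subunit, had the widest interval of the 71, 0.59 (95% confidence interval -0.03 to 1.22). The WT IVF arrays of Lsm6 read 8.13, 7.32 and 8.48. Its other probe sets, 10579833 and 10577598, gave 0.11 and 0 for ATF7 loss after IVF. For IVF in WT they gave 0.27 and 0.22, against -0.6 from the brightest, so no direction is given for Lsm6.

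The arrays of the groups compared were also set beside each other without a model. In ATF7 loss after natural mating, 27 of the 71 genes were lower and 13 higher without overlap (38% and 18.3%, against 16.3% and 15.5% of all probe sets). For IVF in Atf7-/- 34 were higher and 10 lower (47.9% and 14.1%, against 16% and 16.2%), for IVF in WT 22 and 4 (31% and 5.63%, against 14% and 15.4%), and for ATF7 loss after IVF 0 and 6 (0% and 8.45%, against 5.78% and 5.09%).

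Of the 71 genes, 13 had several probe sets, and in some of them these disagreed. Srsf3 gave 0.48 for IVF in WT and 0.14 in Atf7-/- from its brightest probe set, and 1.09 (SE 0.16, adjusted p = 0.00327) and 1.04 (SE 0.16, adjusted p = 0.0019) from the dimmest, 10443459. The latter read 5.74, 5.79 and 5.81 in WT natural mating and, without overlap, 7.02, 6.94 and 6.64 after IVF. Hnrnph2, a close relative of Hnrnph1, gave -0.29 (adjusted p = 0.124) for ATF7 loss after natural mating from its brightest probe set and -0.78 (adjusted p = 0.0476) from the other, 10490773. The second probe set of Snrpg, 10449242, gave 0.94 (adjusted p = 0.0185) for IVF in Atf7-/-, against 0.44 from the brightest. For IVF in WT, Snrpd2 gave 0.49 (adjusted p = 0.129) from its brightest probe set and 0.61 (adjusted p = 0.0357) from 10498595. Where each probe set lies in its gene, and whether it reads another copy of that gene, was not analysed here.

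The rest of the splicing machinery was read from a list of 138 other genes, of which 130 were measured. For ATF7 loss after natural mating 13 fell and 4 rose (10% and 3.08%, against 3.67% and 3.83% of all probe sets). For IVF in Atf7-/- 15 rose and 3 fell (11.5% and 2.31%, against 3.27% and 3.51%), and for IVF in WT 6 rose and 0 fell (4.62% and 0%, against 2.85% and 1.67%). None was called for ATF7 loss after IVF (0.00575% of all probe sets), and 10 positive and 6 negative interactions were called (7.69% and 4.62%, against 2.72% and 3.46%). In 35 of the 130 (26.9%, against 6.03% of all probe sets) all 3 Atf7-/- natural mating arrays lay below the other 9.

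With ATF7 loss after natural mating, Ddx5, an RNA helicase, fell by 0.93 (SE 0.096, adjusted p = 0.000192), U2af1, which reads the AG of the 3′ splice site, by 0.84 (SE 0.084, adjusted p = 0.00016) and Rbm25, a regulator of splice site choice, by 0.84 (SE 0.15, adjusted p = 0.00377). Ddx5 read 11.27, 11.21 and 11.46 in WT from natural mating, 11.08, 11.03 and 11.20 in WT from IVF, 10.40, 10.45 and 10.28 in Atf7-/- from natural mating and 11, 11.07 and 10.89 in Atf7-/- from IVF, so its Atf7-/- natural mating arrays lay below the other 9. Zcrb1, a protein of the minor spliceosome, rose by 1.11 (SE 0.12, adjusted p = 0.000243), and it also rose with IVF in WT by 0.88 (SE 0.12, adjusted p = 0.00262). Its interaction was -1.32 (SE 0.17, adjusted p = 0.00175), Rbm25 gave 1.02 (SE 0.21, adjusted p = 0.0161), Usp39, a tri-snRNP protein, -0.93 (SE 0.20, adjusted p = 0.0208) and Snrnp70, the 70K protein of U1, 0.90 (SE 0.12, adjusted p = 0.00224). The other large rises with IVF in WT were those of the exon junction helicase Eif4a3 (1.03 (SE 0.22, adjusted p = 0.0184)), the cap-binding subunit Ncbp1 (0.76 (SE 0.17, adjusted p = 0.0241)) and Plrg1 of the Prp19 complex (0.73 (SE 0.13, adjusted p = 0.0101)).

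With IVF in Atf7-/-, the exon junction protein Rbm8a rose by 0.90 (SE 0.12, adjusted p = 0.00122), Bcas2 of the Prp19 complex by 0.89 (SE 0.13, adjusted p = 0.00179) and Smndc1, a factor of tri-snRNP recruitment, by 0.82 (SE 0.12, adjusted p = 0.00182), as did Matr3, an RNA-binding protein of the nuclear matrix (0.76 (SE 0.12, adjusted p = 0.00275)). Wdr77, which works with Prmt5 to methylate Sm proteins before their assembly, fell by 0.76 (SE 0.10, adjusted p = 0.00117). The kinases that phosphorylate SR proteins split. Clk4 fell by 0.73 (SE 0.10, adjusted p = 0.00104) with ATF7 loss after natural mating and Srpk2 by 0.70 (SE 0.18, adjusted p = 0.0282), whereas Clk1 gave -0.44 (SE 0.13, adjusted p = 0.0411), short of the fold limit, and Srpk1 0.05 (SE 0.14, adjusted p = 0.86). Clk1 rose by 0.64 (SE 0.13, adjusted p = 0.00785) with IVF in Atf7-/-, and Clk4 gave 0.44 (SE 0.10, adjusted p = 0.0171) there. The interaction was 0.72 (SE 0.14, adjusted p = 0.0148) for Clk4 and 0.69 (SE 0.18, adjusted p = 0.0426) for Clk1. Clk4 read 9.95, 9.64 and 9.82 in WT from natural mating, 9.47, 9.62 and 9.47 in WT from IVF, 9.03, 9.10 and 9.08 in Atf7-/- from natural mating and 9.35, 9.57 and 9.60 in Atf7-/- from IVF, and the Atf7-/- natural mating arrays lay below all others.

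The members with low readings were not called. Srsf12, at 5.21 to 5.61 over the 12 arrays, and Lsm5, at 5.86 to 6.36, were the only 2 of the 71 below the median of all probe sets, and neither passed the F test (adjusted p = 0.942 and 0.287). Hnrnpk, at 11.18 to 11.62, Lsm12, at 10.62 to 11.11, and Prpf40b, at 7.04 to 7.44, did not pass it either (0.166, 0.52 and 0.861). Lsm2, a subunit of both LSM rings, Snrpc and Sf3b4 read 6.70 to 7.09, 7.76 to 8.38 and 6.93 to 7.60, with adjusted p of 0.145, 0.0727 and 0.117.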

How the data were processed

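Liver RNA of 12 mice was hybridised to Affymetrix arrays, 1 array per mouse and 3 mice per group, and groups were taken from the sample labels. The authors' RMA step, run with the R package affy, gave log2 values, 1 per probe set and array, and the deposited values were used as they are. Per the labels the tools were RMA, affy and limma. For neither versions nor genome build is a value given in the sources used here.

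Of 34760 probe sets, the platform annotation gives 21640 a single gene symbol, 1321 more than 1 symbol and 11799 no symbol. Members were the 71 symbols that begin with Snrp, Sf3a, Sf3b, Srsf, Hnrnp, Prpf or Lsm (a digit after all but Snrp and Hnrnp), read from 93 probe sets. All 71 symbols were found unchanged in a RefSeq gene table. The members, the list of other splicing genes, the marker lists and the tests were chosen with earlier results of these data known.

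With limma 3.58.1 (R 4.3.3), group means were fitted over all probe sets and all 12 arrays (8 residual degrees of freedom), with empirical Bayes variances, and 5 contrasts and an F test over the 4 groups were taken. Both thresholds (adjusted p, 0.05; log2 fold change in either direction, 0.6) are those of the article's methods. The step was tested on simulated data before use. Precision is limited by the number of arrays. The replicates are separate animals.

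Genes were named by rule: every called member, in each family the members with the highest mean, the lowest mean and the largest F, 10 members named whatever their result (Prpf8, Prpf19, Sf3b1, Srsf1, Srsf3, Hnrnpa1, Hnrnpa2b1, Snrpd1, Snrpn and Lsm2), up to 4 called other splicing genes per comparison and the SR protein kinases Clk1, Clk4, Srpk1 and Srpk2. Members that passed the adjusted p alone, disagreeing probe sets and Snrpa, Snrpg, Prpf4 and Lsm6 were named after their values were seen. Promoter windows are the 250 bases before RefSeq transcript starts in GRCm38.p6, and TGACGTCA and TGACG were searched on both strands. Alternatives were median centring or quantile normalization of the arrays, array weights, robust variances with an intensity trend, a block for the replicate number, fits restricted to both groups compared, dim probe sets or those without 1 symbol left out, the mean of a gene's probe sets, other fold limits and each array left out in turn. Figures were drawn with matplotlib 3.10.9, pandas 2.3.3 and numpy 2.4.6 in Python 3.11.15.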

Additional observations from a re-analysis of the deposited data

Results flagged for a closer look

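The effect of IVF differed between the genotypes in 8 of the 71 genes, by limma's test of the interaction itself. Of these, 7 were positive (9.86%, against 2.72% of all probe sets) and 1 was negative (1.41%, against 3.46%). With each of the 12 arrays left out in turn, the call of Hnrnph1 held in 4 cases, that of Hnrnpd in 3 and that of Lsm8 in 8. The log2 fold change of IVF in Atf7-/- minus that in WT was 1.84 for Srsf5, 1.05 for Hnrnpc, 0.81 for Sf3b2, 0.80 for Hnrnpm, 0.78 for Hnrnph1, 0.71 for Hnrnpdl, 0.64 for Hnrnpd and -1.19 for Lsm8. Each of these rests on all 4 groups, and therefore also on the Atf7-/- natural mating arrays, whose readings of these genes stood below the other 9 in 7 cases and, for Lsm8, in part above them. Groups of 3 arrays are too small for a test of single outlying arrays.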

How the results depend on the processing

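None of the calls changed direction under any alternative. The share of all probe sets called was not counted in the refits, so the counts of members from refits have no background beside them. Without each array in turn, 1 to 4 members were called for IVF in WT (3 with all arrays), 7 to 12 for IVF in Atf7-/- (11), 9 to 11 for ATF7 loss after natural mating (10), 0 for ATF7 loss after IVF, 5 to 10 for the interaction (8) and 20 to 39 by the F test (37). The lowest counts came without WT IVF replicate 2 for IVF in WT and without Atf7-/- IVF replicate 3 for IVF in Atf7-/-. For the interaction 5 were called without Atf7-/- natural mating replicate 1 or 3 or Atf7-/- IVF replicate 3. With no fold limit there were 9, 26 and 25 calls in the first 3 comparisons, and with a limit of 1 there were 0, 2 and 3, and 3 interactions. For IVF in WT, array weights gave 5 calls and centring gave 6, and the cause was not tested. Centring gave 8 interactions, 6 of them among the 8 without it, split 5 positive and 3 negative, and turned the interaction's median over the members from 0.05 to -0.03. Leaving out dim probe sets, or those without 1 symbol, gave 11 interactions (7 positive and 4 negative), over fewer probe sets tested. Calls that held without each array were 1 of 3, 6 of 11, 8 of 10 and 5 of 8 (interaction).

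The labels do not say whether the replicate numbers pair the mice. Of 18 same-numbered pairs of arrays, 3 had deviations from the group means that correlated above 0.1 (r from -0.12 to 0.24). Different-numbered pairs gave r from -0.2 to 0.19, so these values do not settle whether the mice were paired. With the replicate number as a block 2, 11, 10, 0 and 6 members were called for IVF in WT, IVF in Atf7-/-, both comparisons of ATF7 loss and the interaction, and 32 by the F test. The block ended the interactions of Hnrnph1 and Hnrnpd and the call of Lsm8 for IVF in WT. Signal over background was not read, and 69 of the 71 members lay above the median of all probe sets.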
